A study of Rattus norvegicus with 12 samples.

Results

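The fibroblast growth factor (FGF) signalling genes described here are 10 of the 17379 genes and unnamed transcripts in the rat bone healing libraries: the receptors Fgfr1, Fgfr2, Fgfr3 and Fgfr4 and the ligands Fgf1, Fgf2, Fgf7, Fgf9, Fgf18 and Fgf23. They were taken by name, and each was found in the files. RNA was sequenced from 12 libraries of male SAS Fischer rats of 200 to 225 g, in 4 groups of 3. Fracture hematoma, the clot and early tissue that fills a bone gap, came from defects of the femur: a 0.5 mm gap in the normal healing group, a 1.5 mm gap in the delayed healing group and a 5.0 mm gap in the nonunion group. The reference, preOP, was the healthy femur piece taken out when the 5.0 mm defects were made, with no treatment. The labels used here state neither age nor the time from surgery to collection. The labels do not say whether libraries are separate animals, so p-values measure the spread between these samples, which may be technical. In bulk tissue, fewer cells of a type and less RNA per cell cannot be told apart, and this holds for every level below.

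FGF ligands bind tyrosine kinase receptors at the cell surface together with heparan sulfate chains, and the paired receptors signal through the adaptor Frs2 to Ras and the MAP kinases. The signal induces its own brakes, the Sprouty and Spred proteins and the phosphatase Dusp6, along with ETS transcription factors such as Etv4 and Etv5. In the skeleton, Fgfr1 is broadly expressed in mesenchymal cells, Fgfr2 is known for bone-forming progenitors and osteoblasts, and Fgfr3 for cartilage and osteoblasts, where it restrains bone growth. Fgfr4 is best known from liver and from regenerating muscle, and Fgf23 is the hormone by which osteocytes lower blood phosphate.

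Libraries held 16808981 to 24325135 estimated reads. In nonunion 2 ribosomal RNA took 72.17% of reads (no other library exceeded 1.74%), and this library had 4770675 other reads once linked transcripts were also set aside. Delayed 2 held 34368 CPM (reads per 1000000 reads of the library, with library sizes scaled by the TMM method) on 11 skeletal muscle marker genes, against 166 to 5563 CPM in the other hematomas. Nonunion 2 held 11384 CPM on 7 adipocyte marker genes, with 128 to 528 CPM in the remaining hematomas. Number format set the normal group's files apart: 16.82% to 18.1% of their read numbers had a decimal point, against 100% in the other groups. Transcript length exceeded effective length by a median of 157.2 to 191.6 bases in the normal files and 194.3 to 254.6 bases in the others. How the normal files were made and the group itself cannot be told apart.

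Within each library, TPM values (transcripts per 1000000), which are corrected for transcript length, put genes on a common scale. By median TPM, Fgfr1 and Fgf7 held the top places in every group. In normal hematomas the order was Fgfr1 at a median of 56.7 TPM, Fgf7 at 20.7, Fgfr2 at 16.8, Fgfr4 at 5.10 and Fgfr3 at 4.0 TPM. The ranges of Fgfr1, Fgf7 and Fgfr2 overlapped each other in turn there, while those of Fgfr2 (10.2 to 23.9 TPM) and Fgfr4 (2.67 to 8.98 TPM) did not. Library by library, Fgfr1 lay above Fgf7 in normal 1, 2 and 3 (56.7 against 20.7, 16.7 against 8.47 and 67.4 against 26.1 TPM). Fgf1, Fgf18, Fgf2, Fgf9 and Fgf23 followed, with medians from 1.22 down to 0.225 TPM and overlapping ranges. In delayed hematomas Fgf7 and Fgfr1 stood at medians of 53.6 and 44.1 TPM, and Fgf18 came next at 2.81 TPM with no overlap. Fgfr2 stood at 1.56 TPM there and Fgfr3 at 0.544 TPM. In nonunion hematomas the order of medians was Fgfr1 (56.8 TPM), Fgf7 (45.2), Fgfr4 (15.5) and Fgfr2 (1.86 TPM), each range overlapping the next. Fgf7 nonetheless lay above Fgfr4 within nonunion 1, 2 and 3 (58.8 against 15.5, 14.5 against 0.0764 and 45.2 against 27.7 TPM). In preOP femur it was Fgf7 (15.0 TPM), Fgfr1 (12.5), Fgfr2 (7.79) and Fgfr3 (2.90 TPM), and Fgfr4 lay at 0.348 TPM. TPM in nonunion 2 are lowered by its ribosomal RNA, so levels compare within a library. The medians and ranges above run across libraries, and an overlap of ranges does not mean that an order turned within a library.

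The mix of receptors differed between groups. Fgfr1 made up 60.5% ± 13.3 (SD, n = 3) of the summed receptor TPM in normal, 93.0% ± 4.07 in delayed, 77.9% ± 13.8 in nonunion and 52.8% ± 2.54 in preOP. Fgfr2 made up 24.0% ± 3.52 in normal and 32.0% ± 4.28 in preOP, against 2.46% ± 1.09 in delayed and 3.39% ± 1.85 in nonunion. The Fgfr2 shares did not overlap between these pairs: 21.0% to 27.9% and 27.1% to 35.0% in normal and preOP, 1.62% to 3.70% and 2.16% to 5.52% in delayed and nonunion. Fgfr3 followed the same order, at 4.63% ± 2.25 in normal, 14% ± 2.71 in preOP, 0.945% ± 0.604 in delayed and 1.12% ± 0.344 in nonunion. Fgfr4 ranged from 3.33% to 24.4% in normal and from 0.335% to 31.7% in nonunion, against 1.77% to 6.34% in delayed and 0.539% to 1.93% in preOP. These shares are a description with no test.

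**Figure D1:**
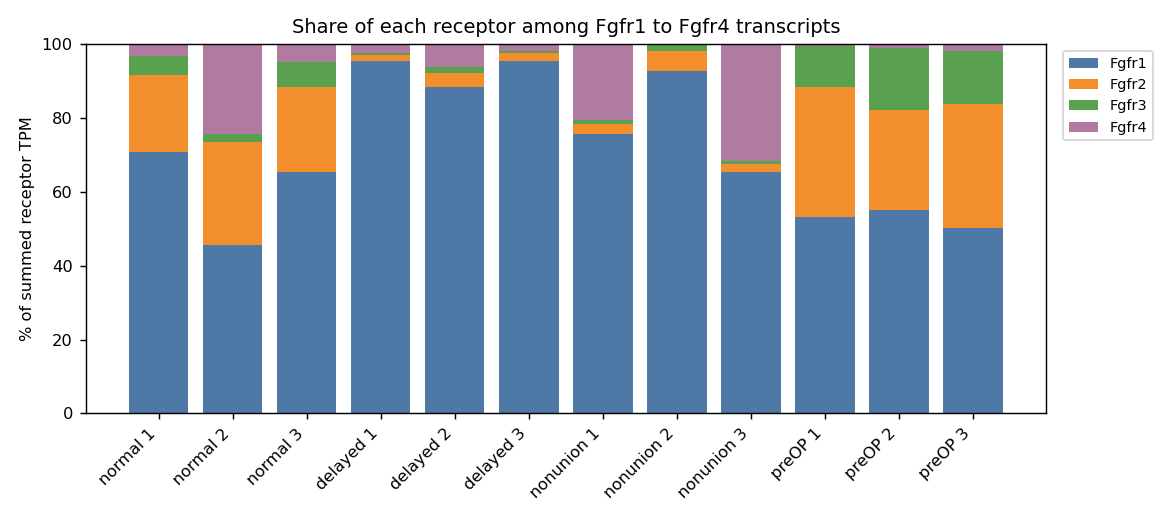
Share of each of the 4 receptors in the summed receptor TPM of each library, in percent (stacked bars, each summing to 100%). Fgfr2 is a broad band in the normal and preOP libraries and a thin one in delayed and nonunion. Fgfr3 is broad in preOP (11.2% to 16.6%), narrower in normal (2.23% to 6.68%) and at most 1.63% in delayed and nonunion. Fgfr4 is broad in normal 2, nonunion 1 and nonunion 3.

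Fgfr2, a receptor of bone-forming cells, was low in delayed and nonunion hematomas and high in normal hematomas and the femur pieces. It stood at 55.5, 46.1 and 71.3 CPM in normal libraries 1, 2 and 3 and at 1.92, 5.93 and 4.15 CPM in delayed libraries 1, 2 and 3. Nonunion libraries 1, 2 and 3 held 5.10, 21.1 and 5.5 CPM, and the preOP pieces 36.3, 34.3 and 38.2 CPM. Every normal and preOP library lay above every delayed and nonunion library, and nonunion 2 was the highest of the latter. Delayed Fgfr2 was 14.8-fold lower than normal (log2 fold change -3.89, SE 0.66, edgeR quasi-likelihood adjusted p = 0.0145). It was the only member of the 8 tested that passed in this comparison, in which 7.13% of the 12474 genes tested were called (2.68% higher and 4.45% lower). Against preOP, which shares the file form of the delayed group, delayed Fgfr2 was 9.08-fold lower (log2 fold change -3.18, SE 0.58, edgeR adjusted p = 0.00248). In that comparison 28.2% of 12846 genes were called, 15.6% lower. The call against preOP held in 16 of 16 alternative settings, and that against normal in 13 of 16. It was lost on leaving out normal 3 (adjusted p = 0.0520), delayed 1 (0.0535) or delayed 3 (0.0537).

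Nonunion Fgfr2 was 3.50-fold below preOP (log2 fold change -1.81, SE 0.55, edgeR adjusted p = 0.0302), where 28.4% of genes were called and 14.9% lower. Leaving out nonunion 1, nonunion 3 or any preOP library ended that call, with adjusted p from 0.0644 to 0.10. Against normal, nonunion Fgfr2 was not called (log2 fold change -2.56, SE 0.62, edgeR adjusted p = 0.0643), although the libraries did not overlap, as for 29.5% of genes. It was called without nonunion 2 (adjusted p = 0.0301). Normal and preOP did not differ beyond the threshold in Fgfr2 (log2 fold change 0.67, SE 0.53, edgeR adjusted p = 0.328), and the 2 groups' libraries did not overlap, as for 66.9% of genes (30.5% higher and 36.4% lower). A fit of those groups alone called it higher in normal (adjusted p = 0.0217), as did the fit without delayed 2 and nonunion 2 (0.0317). Comparisons with normal share its 3 libraries, and comparisons with preOP share those of preOP.

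The Fgfr2 reads fell on 6 transcripts that form 3 pairs differing by 3 bases in length (4654 and 4651, 4387 and 4384, 4309 and 4306 bases). The shorter member of each pair held 98.2% to 100% of Fgfr2 reads in normal libraries, 100% in nonunion and 91.7% to 96.7% in preOP. In delayed it held 75.2% in delayed 2 and 100% in the other libraries. Such near-identical transcripts share most of their reads, so the split is an estimate, and the files do not say which splice forms they are.

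Fgfr3, the receptor that restrains growth of cartilage and bone, ran with Fgfr2. Normal libraries 1, 2 and 3 held 9.47, 2.69 and 14.9 CPM, and delayed libraries 0.422, 1.8 and 1.05 CPM. Nonunion libraries held 1.58, 4.16 and 1.45 CPM, and preOP pieces 8.34, 15.2 and 11.5 CPM. All delayed libraries lay below all normal and preOP libraries, while nonunion 2 lay above normal 2. Against preOP, Fgfr3 was 10.7-fold lower in delayed (log2 fold change -3.42, SE 0.73, edgeR adjusted p = 0.00599) and was called in 16 of 16 alternatives. In nonunion it was 5.04-fold lower than in preOP (log2 fold change -2.33, SE 0.71, edgeR adjusted p = 0.0299). That call ended without nonunion 1, nonunion 3, preOP 2 or preOP 3, with adjusted p from 0.0676 to 0.103. Against normal, delayed Fgfr3 narrowly missed the threshold (log2 fold change -3.11, SE 0.81, edgeR adjusted p = 0.0518), with no overlap, as for 36.5% of genes (20.4% on the lower side). It was called by DESeq2 (adjusted p = 0.00160) and without delayed 2 and nonunion 2 (0.0280). Nonunion against normal gave -2.05 (SE 0.78, adjusted p = 0.180), and normal against preOP gave -0.37 (SE 0.66, adjusted p = 0.673).

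The gene starts of Fgfr2 and Fgfr3 are shown because both fell against preOP in delayed and nonunion, and that of Fgfr4 because it rose in normal and nonunion. Fgfr1, which also changed, and Fgf23 are not in the table of gene starts used here. Fgf7 also rose against preOP in delayed and nonunion, and its window is described below without its bases. Each run is the 250 bases before the annotated start, 5′ to 3′ on the gene's strand, from RefSeq on build GRCr8, which is not the rn6 build of the files. Capitals mark the GC box core GGGCGG or its reverse CCGCCC.
Fgfr2 (chr1:194280915-194281164, minus strand): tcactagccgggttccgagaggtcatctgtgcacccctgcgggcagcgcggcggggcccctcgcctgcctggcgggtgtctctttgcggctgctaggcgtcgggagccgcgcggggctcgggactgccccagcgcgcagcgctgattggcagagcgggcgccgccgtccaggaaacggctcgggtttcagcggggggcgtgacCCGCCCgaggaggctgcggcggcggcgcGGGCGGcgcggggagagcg
Fgfr3 (chr14:81227210-81227459, minus strand): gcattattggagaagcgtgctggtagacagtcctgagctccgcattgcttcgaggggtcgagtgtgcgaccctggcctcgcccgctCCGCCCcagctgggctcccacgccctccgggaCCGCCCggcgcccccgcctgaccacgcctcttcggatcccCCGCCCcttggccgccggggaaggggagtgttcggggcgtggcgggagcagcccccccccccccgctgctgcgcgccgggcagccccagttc
Fgfr4 (chr17:9481390-9481639, minus strand): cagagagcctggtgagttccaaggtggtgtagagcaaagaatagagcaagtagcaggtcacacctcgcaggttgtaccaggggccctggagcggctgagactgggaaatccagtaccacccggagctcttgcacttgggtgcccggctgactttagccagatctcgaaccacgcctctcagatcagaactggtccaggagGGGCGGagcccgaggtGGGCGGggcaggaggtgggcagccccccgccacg
The Fgfr2, Fgfr3 and Fgfr4 windows held 2, 3 and 2 GC box cores, and a GC content of 76.8%, 74.4% and 62.8%. Among 33469 windows of the same length, 30.5% held the core on either strand, and the median GC content was 51.2%. Of the ligands with a window, Fgf18 held 1 core at 82.0% GC, and Fgf1, Fgf2, Fgf7 and Fgf9 held none at 41.6% to 46.8% GC. The Runx core TGTGGT (either strand) was in none of the 8 member windows and in 14.5% of all windows. The E-box CAGCTG, which reads the same on both strands and overlaps neither of the others, was in Fgfr3 only among them and in 12% of all windows. A match is a description of letters, not of binding.

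**Figure D2:**
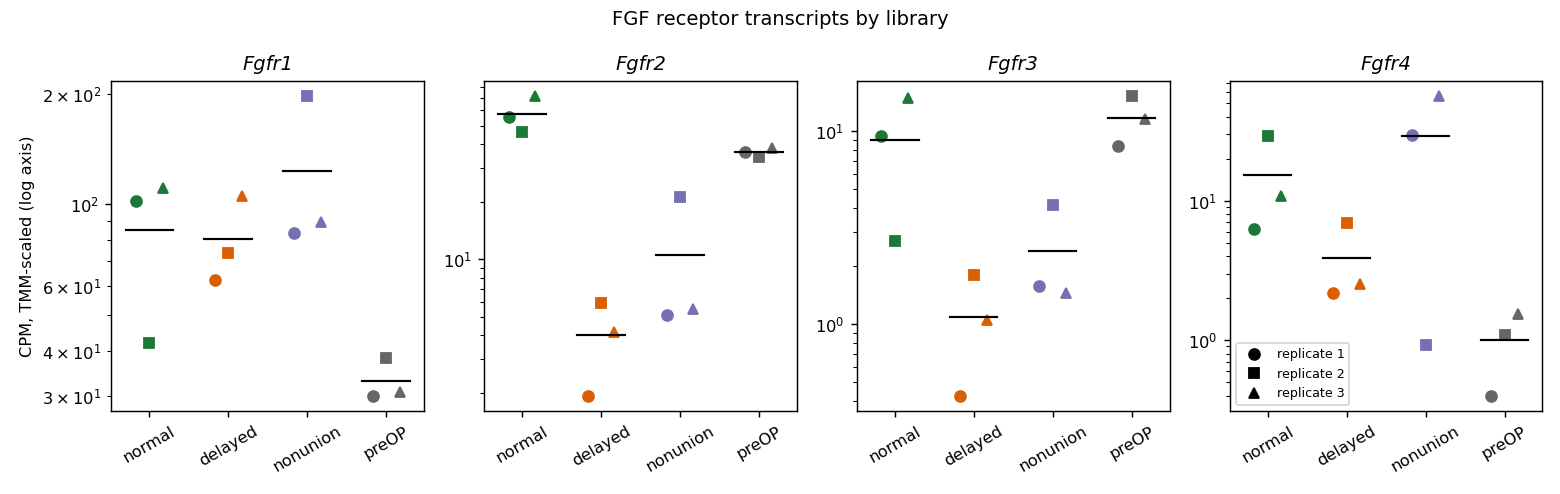
Fgfr1, Fgfr2, Fgfr3 and Fgfr4 in TMM-scaled CPM (log axes, one range per panel) for each of the 12 libraries, with symbols for replicate numbers and a line at each group mean. Delayed Fgfr2 (1.92 to 5.93 CPM) lies below normal (46.1 to 71.3 CPM), and preOP Fgfr1 (30 to 38.1 CPM) lies below every hematoma.

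Marker sums of cartilage cells and neutrophils split the groups as Fgfr2 did, and those of bone and endothelial cells did so only in part. The 13 osteoblast and osteocyte markers summed to 32944 to 34600 CPM in normal libraries. The delayed sums were 9726 to 22804 CPM, the nonunion sums 5377 to 20280 CPM and the preOP sums 2415 to 2662 CPM. In delayed against normal 9 of the 13 fell and 0 rose (median log2 fold change -5.97, against 0.02 over all genes tested), and in nonunion against normal 7 fell and 0 rose (median -4.68, against -0.03). The sums did not follow Fgfr2 in preOP, where the marker sum was lowest and Fgfr2 high. Col1a1 and Spp1 weighed most in the hematoma sums. Col1a1 means were 22404, 8142, 4891 and 1913 CPM in normal, delayed, nonunion and preOP, and Spp1 means 9652, 8720, 8625 and 110 CPM. Called gene by gene, 6 of the 13 were lower and 3 higher in delayed than in preOP. In nonunion 6 were lower and 2 higher than in preOP. Over all genes 15.6% and 14.9% were lower there and 12.6% and 13.5% higher. The 9 cartilage markers in the files summed to 318 to 622 CPM in normal libraries and 92.9 to 120 CPM in preOP pieces. The delayed sums were 31.8 to 35.5 CPM and the nonunion sums 7.71 to 55.4 CPM, so that normal and preOP lay above both, as for Fgfr2. Of the 8 tested, 6 fell in delayed and 7 in nonunion against normal, where 4.45% and 1.48% of all genes fell. Sost, an osteocyte gene, was at 0 in delayed 1, delayed 2, nonunion 2, preOP 1 and preOP 3. Sums of 8 neutrophil markers split the groups in the same way, at 1583 to 10384 CPM in normal and 9606 to 12325 CPM in preOP against 81.1 to 1016 CPM in delayed and 65.4 to 650 CPM in nonunion. Sums of 9 endothelial markers were 168 to 399 CPM in delayed, below the 587 to 649 CPM of normal, the 602 to 637 CPM of preOP and the 533 to 1695 CPM of nonunion. The part of these cell types in the Fgfr2 and Fgfr3 values was not tested.

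The genes whose log2 CPM followed Fgfr2 most closely over the 12 libraries were Omd (Pearson r = 0.973), Col13a1 (0.972) and Dmp1 (0.965). Within the 9 hematoma libraries r was 0.969, 0.975 and 0.970. Omd, a small proteoglycan of bone matrix, ranged from 25.5 to 29.7 CPM in normal, 0.363 to 6.32 CPM in delayed and nonunion, and 13.5 to 19.4 CPM in preOP. Dmp1, a matrix protein of osteocytes, ranged from 117 to 227 CPM in normal, 0.161 to 5.86 CPM in delayed and nonunion, and 26.4 to 30.2 CPM in preOP. These are descriptions over libraries that share scaling and group differences, with no p.

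Fgfr1, the broad mesenchymal receptor, was higher in hematoma than in the femur piece, and no difference between the healing groups passed the test. It stood at 102, 41.9 and 111 CPM in normal libraries 1, 2 and 3, at 62.4, 73.9 and 105 CPM in delayed, and at 83.6, 197 and 89.6 CPM in nonunion. The preOP pieces held 30, 38.1 and 30.8 CPM, below every hematoma library. Against preOP, Fgfr1 was 2.58-fold higher in normal (log2 fold change 1.36, SE 0.42, edgeR adjusted p = 0.0225), where 42.6% of genes were called, 20.5% higher and 22.1% lower. It was 2.44-fold higher in delayed (log2 fold change 1.29, SE 0.42, adjusted p = 0.0402, with 12.6% of genes called higher). It was 3.74-fold higher in nonunion (log2 fold change 1.90, SE 0.43, adjusted p = 0.00743, with 13.5% of genes called higher). The nonunion call held on leaving out each library. The normal call ended without normal 1, normal 3, preOP 1 or preOP 3 (adjusted p 0.0595 to 0.0818), and the delayed call without delayed 3 or any preOP library (0.0581 to 0.120). Among hematomas the fitted log2 differences were -0.11 (SE 0.47) for delayed and 0.44 (SE 0.47) for nonunion against normal, and neither passed (adjusted p = 0.906 and 0.635). The sign of the delayed difference turned under 4 settings other than leaving out a library. Fibroblast markers rose with Fgfr1: 8, 5 and 5 of 9 were called higher than preOP in normal, delayed and nonunion, and 0 lower. Macrophage markers did too, with 5, 6 and 6 of 7 called higher and 0 lower. Of all genes 20.5%, 12.6% and 13.5% were called higher. All 6 erythroid markers were called lower than preOP in normal, delayed and nonunion, beside 22.1%, 15.6% and 14.9% of all genes. The erythroid markers summed to 112204 to 190168 CPM in preOP and 889 to 19512 CPM in the hematomas. The part of these cell types in the Fgfr1 difference was not tested.

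Fgfr4 split the nonunion libraries. Nonunion 1 and 3 held 29.7 and 56.3 CPM, the highest of the series with normal 2 (29.0 CPM), whereas nonunion 2 held 0.925 CPM, within the range of preOP. Normal 1 and 3 held 6.22 and 10.8 CPM, delayed libraries 2.19, 6.91 and 2.54 CPM, and preOP pieces 0.395, 1.09 and 1.54 CPM. Against preOP, Fgfr4 was 15.3-fold higher in normal (log2 fold change 3.93, SE 1.15, edgeR adjusted p = 0.0185) and 29.0-fold higher in nonunion (log2 fold change 4.86, SE 1.2, adjusted p = 0.0117). The nonunion call held on leaving out each library, was lost by limma on TPM (adjusted p = 0.102), and without nonunion 2 the log2 fold change was 5.59. The normal call ended without normal 2 (log2 fold change 3.09, adjusted p = 0.0640), preOP 1 (0.0618) or preOP 2 (0.0534). Delayed against preOP was not called (log2 fold change 1.94, SE 1.09, edgeR adjusted p = 0.210), with no overlap, as for 52% of genes (21.9% higher and 30.1% lower). Nonunion against delayed was 7.44-fold higher in the fit, and did not pass (log2 fold change 2.90, SE 1.13, edgeR adjusted p = 0.649). Neither did nonunion against normal (0.91, SE 1.06, adjusted p = 0.672) or delayed against normal (-1.99, SE 1.10, adjusted p = 0.281). Delayed fell below normal in the fit without delayed 2 and nonunion 2 (-2.62, adjusted p = 0.0408).

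The muscle regeneration genes Myod1 and Myog ran beside Fgfr4, and the muscle marker list as a whole did not. Myod1, the muscle determination factor, stood at 19.5, 55.7 and 18.7 CPM in normal, 3.69, 13.4 and 3.15 in delayed, 34.7, 1.85 and 62.9 in nonunion, and 3.45, 2.78 and 1.17 CPM in preOP. Myog, a factor of differentiating myoblasts, stood at 43.9, 169 and 61.7 CPM in normal, 1.27, 23.9 and 3.27 in delayed, 139, 0.462 and 318 in nonunion, and 0.987, 0.708 and 1.79 CPM in preOP. In each hematoma group the library highest in Fgfr4 was also highest in Myod1 and Myog, and nonunion 2 was lowest in all of them among the nonunion libraries. Both factors rose against preOP in normal (Myod1 log2 fold change 3.65, edgeR adjusted p = 0.0166; Myog 6.31, adjusted p = 0.0137) and in nonunion (Myod1 3.75, adjusted p = 0.0216; Myog 7.05, adjusted p = 0.0135). Ckm, the creatine kinase of mature muscle fibres, did not follow this order: it was highest in delayed 2 (3565 CPM) and stood at 422 to 878 CPM in preOP, where Fgfr4 was low. The 11 skeletal muscle markers summed to 490 to 3899 CPM in normal libraries and 3765 to 9145 CPM in preOP pieces. The delayed sums ran from 166 to 34368 CPM and the nonunion sums from 779 to 5563 CPM. Against preOP, 2 of the 11 were called higher in normal, 0 in delayed and 3 in nonunion, and 0 lower. Over all genes 20.5%, 12.6% and 13.5% were called higher. The list medians of the log2 fold change were -1.21, 1.13 and -1.07. How muscle content bears on Fgfr4 was not tested.

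**Figure D3:**
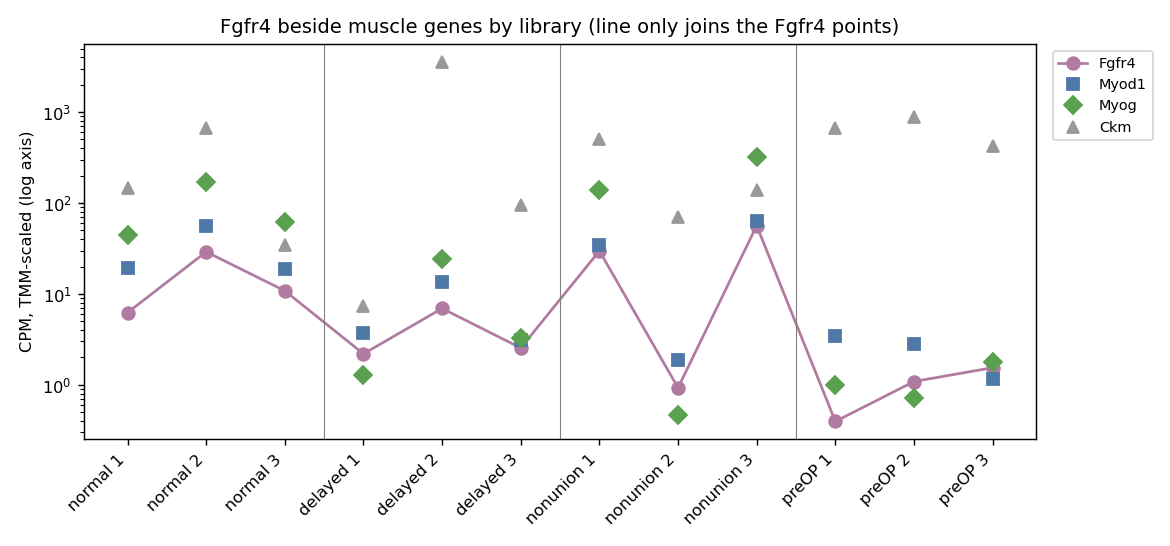
Fgfr4, Myod1, Myog and Ckm in TMM-scaled CPM (log axis) in the 12 libraries. The line only joins the Fgfr4 points. Fgfr4, Myod1 and Myog peak in normal 2, delayed 2 and nonunion 3, and Ckm is high in preOP (422 to 878 CPM) where Fgfr4 is 0.395 to 1.54 CPM.

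Fgf7, the keratinocyte growth factor made by mesenchymal cells, was the main ligand, with 81.5% to 91.0% of the summed TPM of the 6 ligands as group means. It stood at 8.22, 4.90 and 9.96 CPM in normal, 9.14, 24.1 and 15.5 in delayed, 17.8, 29.7 and 14.9 in nonunion, and 7.99, 7.41 and 4.75 CPM in preOP. Each nonunion library lay above each normal library, and 29.5% of genes did not overlap there in either direction (14.1% higher and 15.5% lower). Each also lay above each preOP library, as for 49.1% of genes in either direction (21% higher and 28% lower). Delayed overlapped normal. Fgf7 was 3.08-fold higher in nonunion than in preOP (log2 fold change 1.62, SE 0.44, edgeR adjusted p = 0.0175) and 2.42-fold higher in delayed (log2 fold change 1.27, SE 0.43, adjusted p = 0.0474). The nonunion call ended only without preOP 3 among libraries left out (adjusted p = 0.0735). The delayed call ended without delayed 2, delayed 3 or any preOP library (adjusted p 0.0527 to 0.162) and was held in 7 of 16 alternatives. Against normal neither passed (nonunion 1.34, SE 0.46, edgeR adjusted p = 0.146; delayed 1.03, SE 0.45, adjusted p = 0.189). Normal and preOP differed by 0.20 (SE 0.43, adjusted p = 0.734). Fgf7 signals mainly through an epithelial form of Fgfr2. The keratinocyte markers Krt5, Krt14 and Krt15 together summed to 0 to 1.54 CPM, and all 3 were at 0 in the normal libraries.

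Fgf1, a ligand that binds all 4 receptors, was set by a single library in delayed and in nonunion. Delayed 2 held 11.3 CPM (220 reads), against 0.0768 and 0.121 CPM (2 and 3 reads) in delayed 1 and 3. Nonunion 2 held 6.63 CPM (43 reads), against 0.712 and 0.331 CPM in nonunion 1 and 3. Normal libraries held 0.952, 0.429 and 0.946 CPM, and preOP pieces 0.691, 1.56 and 1.36 CPM. The high libraries are those rich in muscle (delayed 2) and in adipocyte transcripts (nonunion 2, Adipoq at 2308 CPM). No comparison called Fgf1 (edgeR adjusted p 0.437 to 0.983), and the log2 fold change of delayed against normal was 2.20 with all libraries and -2.91 without delayed 2. Without delayed 2 and nonunion 2, delayed Fgf1 was below normal (-2.85, adjusted p = 0.0391) and below preOP (-3.31, adjusted p = 0.00396).

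The remaining ligands lay near the limit that counting allows, where 3 reads are worth 0.115 to 0.462 CPM. Fgf18, a ligand for Fgfr3 in cartilage and bone, ranged from 0.122 to 0.802 CPM in normal and 0.472 to 0.543 CPM in preOP. Delayed libraries held 0.345 to 0.980 CPM and nonunion libraries 0.237 to 0.496 CPM, and its groups overlapped in all 6 comparisons (edgeR adjusted p 0.623 to 0.926). Fgf9, a ligand of mesenchymal receptors in cartilage and muscle, had 0 to 28 reads per library, with the most in delayed 2 (1.44 CPM), nonunion 1 (0.791 CPM) and normal 2 (0.612 CPM). Fgf9 was called in no comparison (adjusted p 0.579 to 0.994). Fgf2, a matrix-bound growth factor known for stimulating bone formation, had 0 to 20 reads per library, most in delayed 2 (1.03 CPM), and did not pass the filter on low counts. Fgf23 had 7 reads in normal, 1 in delayed, 9 in nonunion and 4 in preOP over 3 libraries each, and did not pass the filter either. No difference in Fgf2 or Fgf23 was tested.

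**Figure D4:**
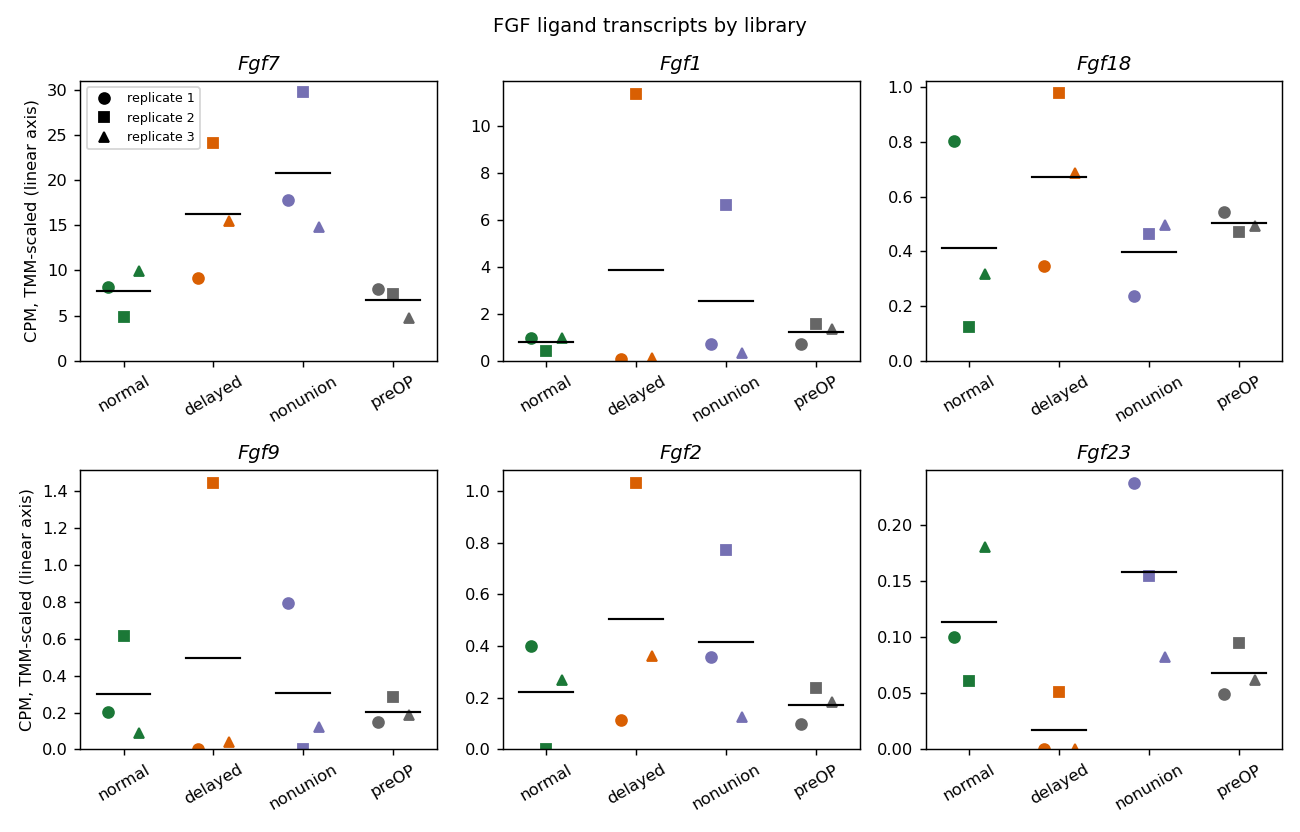
The 6 ligands in TMM-scaled CPM (linear axes from 0, one range per panel) for each of the 12 libraries, with a line at each group mean. Fgf7 reaches 29.7 CPM, and the delayed mean of Fgf1 is carried by delayed 2 at 11.3 CPM.

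Over the 8 members tested, 0 rose and 1 fell in delayed against normal, and 0 were called in nonunion against normal, where 2.37% of all genes were called (0.89% higher and 1.48% lower). In the latter 3 members had an unadjusted p under 0.05, DESeq2 called 2 (Fgf7 and Fgfr2) and limma-voom 1 (Fgfr2). No member and no gene was called in nonunion against delayed, a background of 0%. All 8 members overlapped between those groups, and 8.91% of genes did not (5.6% higher and 3.32% lower). There 881 genes and 1 member (Fgfr4) had an unadjusted p under 0.05, DESeq2 called 184 genes and 0 members, and limma-voom 0. Against preOP, 2 members rose in normal and 0 fell, 2 rose and 2 fell in delayed, and 3 rose and 2 fell in nonunion. The shares of all genes called were 42.6%, 28.2% and 28.4%, so the 2 of 8 in normal lie below the background. The median log2 fold change of the members was 0.26, 0.32 and 0.43 in the 3 hematoma comparisons, against 0.02, -0.03 and -0.05 over all genes. In normal, delayed and nonunion against preOP it was 0.34, 1.23 and 0.87, against -0.09, -0.03 and -0.00 over all genes. Without delayed 2 and nonunion 2, 4 members fell in delayed against normal (Fgf1, Fgfr2, Fgfr3 and Fgfr4).

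**Figure D5:**
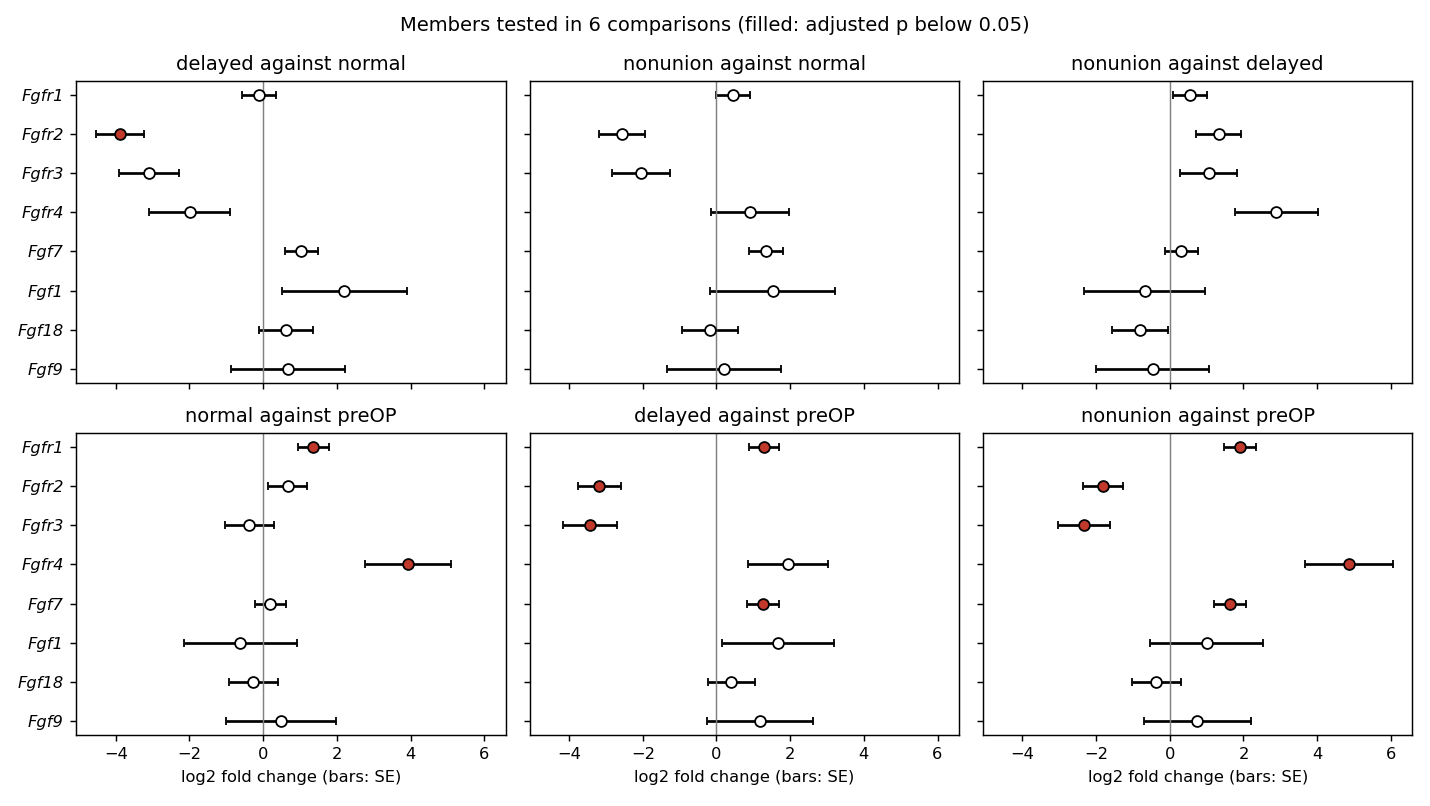
Fitted log2 fold changes of the 8 members tested (points) with their SE (bars) in the 6 comparisons, with filled points where the adjusted p is below 0.05. Fgfr2 is the only filled point among hematomas (-3.89 in delayed against normal), and Fgfr2 and Fgfr3 are filled on the lower side against preOP in delayed and nonunion.

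Other FGF ligands were low. Of 14 in the files 4 were tested, and the call made was Fgf11, an intracellular FGF family member, which rose in nonunion against preOP (log2 fold change 2.75, SE 0.73, edgeR adjusted p = 0.0170). Fgf13, another intracellular member and the most abundant of the list, ranged from 0.115 CPM in delayed 1 to 22.8 CPM in delayed 2 and was not called.

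Among co-receptors and binding proteins, 0 of 7 tested changed in delayed or nonunion against normal. Against preOP, 2, 4 and 3 of 7 rose in normal, delayed and nonunion, and 0 fell, beside 20.5%, 12.6% and 13.5% of all genes that rose. Without delayed 2 and nonunion 2, 5, 4 and 3 rose and 1, 2 and 1 fell there, and 1 fell in delayed against normal. Flrt3, a membrane protein that binds FGF receptors, rose most, from 0.142 to 0.308 CPM in preOP to 1.65 to 7.35 CPM in normal (log2 fold change 4.42), 5.99 to 8.15 in delayed (4.77) and 2.15 to 9.09 in nonunion (4.21). Ncam1, an adhesion molecule that can engage Fgfr1, also rose in normal, delayed and nonunion (2.22, 3.30 and 3.35), with nonunion 2 at 6.32 CPM inside the preOP range of 5.92 to 9.12 CPM. Kl, the co-receptor that Fgf23 needs, was at 0 in each nonunion and preOP library and reached 0.10 CPM at most.

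Heparan sulfate genes formed the longest of the pathway lists. Of 20 tested against preOP, 10 rose and 2 fell in normal, 8 rose and 2 fell in delayed, and 9 rose and 1 fell in nonunion (medians 1.06, 1.0 and 1.10). Over all genes 20.5%, 12.6% and 13.5% rose and 22.1%, 15.6% and 14.9% fell. Sdc1, a cell surface proteoglycan, rose from 15.1 to 17.9 CPM in preOP to 251 to 299 CPM in normal (log2 fold change 4.05) and 113 to 427 CPM in delayed (4.08). In nonunion it held 235, 8.02 and 159 CPM, called at 3.04 with nonunion 2 below preOP. Sulf2, which trims heparan sulfate, was higher by 2.67, 2.65 and 2.96 in normal, delayed and nonunion. Within the hematomas, Sdc3, a syndecan, fell in delayed (log2 fold change -2.83, SE 0.32, edgeR adjusted p = 0.00452) and in nonunion (-1.64, SE 0.31, adjusted p = 0.0330) against normal. Sdc3 stood at 111 to 144 CPM in normal and 86.9 to 154 CPM in preOP, but at 17 to 19.9 CPM in delayed and 29.1 to 63.0 CPM in nonunion, the group order of Fgfr2 among the hematomas. Gpc1, a glypican, fell in delayed against normal (-2.18, SE 0.55, adjusted p = 0.0477), from 344 to 380 CPM to 34.9 to 114 CPM. Of the 20 tested, 2 fell in delayed and 1 in nonunion against normal, and 0 rose. Over all genes 4.45% and 1.48% fell in these comparisons. Without delayed 2 and nonunion 2, 1 rose and 4 fell in delayed, and 1 fell in nonunion. With all libraries the median of the list against normal was -0.14 for delayed and 0.15 for nonunion.

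Among 19 adaptors and transducers, Map2k2, a MAP kinase kinase, fell in delayed against normal (log2 fold change -1.38, SE 0.34, edgeR adjusted p = 0.0439). None of the list was called in nonunion against normal. Against preOP, 2 rose and 5 fell in normal, 2 rose and 1 fell in delayed, and 2 rose and 3 fell in nonunion, with list medians from -0.09 to 0.09. Of all genes, 20.5%, 12.6% and 13.5% rose and 22.1%, 15.6% and 14.9% fell. The counts that rose and the fall in delayed lie below these shares. The falls in normal and nonunion lie slightly above them. Without delayed 2 and nonunion 2, 6, 5 and 5 rose and 4, 1 and 1 fell.

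Feedback inhibitors and ETS targets, often read as signs of FGF and other receptor kinase signalling, were called only higher where they were called against preOP, and none was called between the healing groups with all libraries. Of 10 tested, 2 rose in normal (Dusp6 and Etv5), 3 in delayed (Spry2, Etv1 and Etv5) and 5 in nonunion (Spry2, Spry4, Spred1, Etv1 and Etv5), with 0 lower and medians of 0.84, 0.96 and 1.08. Over all genes 20.5%, 12.6% and 13.5% rose, so the count in normal is at the background. Without delayed 2 and nonunion 2 the counts were 5, 7 and 7, and 1 gene of the list was called higher in delayed against normal. Etv5 stood at 6.47 to 12.2 CPM in preOP and at 21.9 to 24.2 CPM in normal. It held 36.0 to 41.4 CPM in delayed and 32.8 to 36.8 CPM in nonunion. It rose against preOP by log2 fold changes of 1.21, 1.95 and 1.84 (edgeR adjusted p = 0.00284, 0.000404 and 0.000574). Etv5 was above normal in each delayed and nonunion library, by 0.73 and 0.56, and neither passed (edgeR adjusted p = 0.0670 and 0.172). Of all genes, 36.5% and 29.5% did not overlap in those comparisons (16.1% and 14.1% on the higher side). Dusp6 ranged from 71.1 to 94.2 CPM in normal and 28.6 to 49.6 CPM in preOP (log2 fold change 1.12, edgeR adjusted p = 0.0402). In both comparisons with normal, 0 of 10 were called (medians 0.20 and 0.38).

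Of 10 genes of the Fgf23 and phosphate axis, 3 fell in delayed against normal and 2 in nonunion, and 0 rose, beside 4.45% and 1.48% of all genes that fell. Mepe, an osteocyte matrix protein, stood at 93.7 to 106 CPM in normal and 0 to 0.464 CPM in delayed and nonunion (log2 fold changes -8.79 and -10.14, edgeR adjusted p = 0.00131 and 0.00144). Dmp1 fell by 7.55 and 6.03 on the log2 scale (adjusted p = 0.0120 and 0.0318). Phex, the endopeptidase whose loss raises Fgf23, fell in delayed (-6.74, SE 1.22, adjusted p = 0.0185), although normal 2 held 1.41 CPM against 25.5 and 32.0 CPM in normal 1 and 3. Against preOP 4 rose and 1 fell in normal, 1 rose and 3 fell in delayed, and 0 rose and 4 fell in nonunion (2 and 3 without delayed 2 and nonunion 2). Of all genes, 20.5%, 12.6% and 13.5% rose and 22.1%, 15.6% and 14.9% fell in these comparisons with all libraries. Galnt3, which protects Fgf23 from cleavage, was among those that fell in nonunion (-3.65, SE 0.94, edgeR adjusted p = 0.0145), from 9.0 to 13.1 CPM to 0.154 to 1.86 CPM. Slc20a1, a phosphate transporter, fell against preOP in normal, delayed and nonunion (-1.13, -1.06 and -0.97). Mepe, Dmp1 and Phex are also in the osteocyte marker list above.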

How the data were processed

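Per the submitters' processing notes, the tools were bcl2fastq 1.8.4, FastQC, Trimmomatic and Salmon, and the build was rn6; the notes as used here give no settings. Each deposited file lists 18321 RefSeq transcripts. Per the file headers, the deposited values are estimated counts (not scaled) and TPM, which the authors' quantifier divided by effective length. Estimated counts were rounded after summing by gene symbol: 17367 transcripts matched 16425 symbols in a RefSeq table of build GRCr8, used for names and gene starts only, and 954 unmatched transcripts stayed single.

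Tests were two-sided quasi-likelihood F-tests in edgeR 4.0.16 (R 4.3.3) with TMM scaling and filterByExpr. Hematoma comparisons used 9 libraries (12474 genes, 6 residual degrees of freedom), and comparisons with preOP all 12 (12846 genes, 8 residual degrees of freedom). A gene was called where the p adjusted by Benjamini-Hochberg over all genes tested was below 0.05. The SE is the absolute log2 fold change over the square root of F. CPM use the TMM factors of the 12 libraries. Floors of 3 reads cover counting error only. Library pairs with identical counts numbered 0.

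All 10 members are named. For each pathway list, up to 4 called genes with the largest absolute log2 fold change per comparison could be named, or up to 2 abundant ones where none was called. Galnt3, Phex, Slc20a1, Kl, Myod1, Myog, Ckm, Sost and Adipoq were named for their role beside a member, some after their values were seen. Col1a1 and Spp1 were named for their weight in a marker sum. The members and lists were chosen with earlier results of these data known. One pathway gene is not reported here. Klb, Cbl, Spry1, Spred3, Gpc6, Hspg2, Glce and Fgf4 were not analysed here.

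On simulated data with 200 planted genes among 12474, the delayed against normal test recovered 0% of genes planted at 2-fold, 17.6% of those at 4-fold and 66.7% at 8-fold, and 1.72% of calls were false. For normal against preOP (12846 genes) these shares were 0%, 32.7% and 78.6%, with 8.75% false. Alternatives were DESeq2 size factors, no filter, DESeq2 1.42.0, limma-voom (limma 3.58.1), a replicate block, sets of libraries or features left out, effective lengths as offsets, and limma on log2(TPM + 0.1).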

Additional observations from a re-analysis of the deposited data

How the results depend on the processing

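Alternatives gave 637 member values with the same direction and side of the threshold, 42 that lost a call, 12 that gained one and 62 that turned sign. Fgfr2 and Fgfr3 in delayed against preOP were called in all 16. Genes called in delayed against normal numbered 889, against 2033 by DESeq2, 2056 without delayed 2 and nonunion 2, and 328 by limma on TPM, with 2, 4 and 1 members called. In nonunion against normal 296 genes and 0 members were called, against 1310 genes and 2 members by DESeq2 and 1 member each by limma-voom, limma on TPM and without delayed 2 and nonunion 2. In nonunion against delayed 0 genes were called, against 184 by DESeq2 and 60 without those libraries. Limma on TPM called 1896, 1331 and 1002 genes and 1, 2 and 1 members in normal, delayed and nonunion against preOP (5466, 3622 and 3649 genes, and 2, 4 and 5 members, in edgeR), and limma-voom 1 member in normal. The causes were not tested. Without ribosomal RNA the median of all genes moved by 0.13, 0.21 and 0.16 in these 3 comparisons, and by DESeq2 size factors by 0.13 in delayed; in delayed against preOP 1615 genes were higher and 2007 lower, against 2137 and 1579 without ribosomal RNA and 1919 and 1739 by DESeq2 size factors. Without ribosomal RNA the split also turned in normal against preOP (2630 and 2836, to 2971 and 2501) and in nonunion against preOP (1736 and 1913, to 2141 and 1602).

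With the replicate number as a block, 433 genes were called in delayed against normal and 148 in nonunion against normal, and 2 members in delayed against preOP (Fgf7 and Fgfr1 lost). Same-numbered libraries correlated by -0.182 to 0.187 across the comparisons, and differently numbered ones by -0.355 to 0.352. With 3 libraries per group, these correlations cannot decide whether a shared number means more than a label.

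Leaving out each library gave 175 to 726 genes (0 to 1 members) in delayed against normal, 23 to 158 (0 to 1) in nonunion against normal, and 0 to 1 genes in nonunion against delayed. Against preOP it gave 3952 to 4846 genes (0 to 1 members) in normal, 2292 to 4030 (2 to 4) in delayed and 2334 to 4221 (2 to 5) in nonunion.

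Signs turned in delayed against normal for Fgf1 (limma-voom -0.65, block -0.88, without delayed 2 and nonunion 2 -2.85; libraries left out -2.91 to 2.78), for Fgf9 (limma-voom -1.16, without those -3.48, TPM -0.22; -3.50 to 1.70) and for Fgfr1 (without those 0.061, without ribosomal RNA 0.0072, TPM 0.29, only the groups compared 0.0066; -0.40 to 0.15). In nonunion against normal they turned for Fgf1 (block -0.45, without those -0.57; -0.55 to 2.08), Fgf9 (limma-voom -0.14, TPM -0.16; -1.72 to 1.23), Fgf18 (limma-voom 0.11; -0.51 to 0.72) and Fgfr4 (TPM -0.26; -0.016 to 1.77). In nonunion against delayed they turned for Fgf1 (limma-voom 0.86, block 0.44, without those 2.28, TPM 0.12; -2.91 to 4.43), Fgf7 (TPM -0.45; -0.051 to 0.67), Fgf9 (limma-voom 1.02, block 0.74, without those 4.14, TPM 0.056; -2.38 to 3.72) and Fgfr1 (without those -0.017, TPM -0.26). Against preOP they turned for delayed Fgf1 (limma-voom -1.25, block -0.31, without those -3.31, TPM -0.18; -3.30 to 2.26), delayed Fgf9 (limma-voom -1.02, without those -2.87; -2.84 to 1.82) and nonunion Fgf1 (limma-voom -0.32, block -0.16, without those -1.03, TPM -0.057; -1.04 to 1.62). With libraries left out only, they turned for normal Fgf7 (-0.031 to 0.44), Fgf9 (-0.50 to 0.94), Fgf18 (-1.14 to 0.15) and Fgfr3 (-0.94 to 0.062), and for nonunion Fgf9 (-1.05 to 1.28) and Fgf18 (-0.55 to 0.046). DESeq2 gave no value for Fgf1, and fits of only the groups compared gave none for Fgf9 and, in 3 comparisons, Fgf18. Read numbers limit Fgf2, Fgf9, Fgf18 and Fgf23.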
